A study of Mus musculus with 28 samples.

Results

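Pou5f1, Sox2 and Nanog encode OCT4, SOX2 and NANOG, the transcription factors at the core of the pluripotency network of embryonic stem cells. They were taken by name, as 3 of 21887 protein-coding genes. A window was set around each, made of the gene body and 150 kb on either side, in mm10 coordinates. The windows held 11 of the 5430 H3.3 regions and 77 of the 57844 H3K27ac regions that the study lists on assembled chromosomes. H3.3 is the replacement histone H3 variant that is put into chromatin outside DNA replication, and H3K27ac, acetylation of lysine 27 on histone H3, marks active promoters and enhancers.

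The regions come from CUT&RUN, in which an antibody tethers a nuclease to its target in nuclei and the released DNA is sequenced. The cells were the male embryonic stem cell line ES-E14TG2a (E14), from mouse, with 28 libraries for 4 targets (H3K27ac, H3K122ac, H3.3 and no primary antibody), 7 libraries each. Per target there was 1 library each of H3f3a_AA_H3f3b_WTWT, H3f3a_WTWT_H3f3b_AA and H3f3a_WTA_H3f3b_AA cells, 2 of H3f3a_AA_H3f3b_WTA cells, 1 from each of 2 clones, and 2 of wildtype cells. H3f3a and H3f3b both encode H3.3, and the series title names the substitution K122A of H3.3. The labels describe medium with serum and LIF and a version with 2 added kinase inhibitors, and do not say which one each library was grown in. H3.3 and H3K27ac each have 1 consensus list of positions, with no height, no p-value and no value per library. Mutant and wildtype cells therefore could not be compared, replicate error and depth are unknown, the H3K122ac and no-antibody libraries were not analysed here, and no test over samples exists for any value below. Positions also give no expression level, so the cell type on the labels could not be checked against marker levels.

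OCT4 and SOX2 bind DNA side by side at a composite element, and NANOG binds many of the same enhancers. The 3 factors act on their own genes as well as on each other's, which keeps the network active while the cells self-renew. OCT4 is a POU-domain factor, SOX2 an HMG-box factor and NANOG a homeodomain factor. Pou5f1 is known for a proximal and a distal enhancer just upstream of its promoter. Sox2 has the nearby enhancers SRR1 and SRR2 and, far downstream, the Sox2 control region, on which its expression in embryonic stem cells depends. Nanog has an enhancer close to its promoter and further elements on either side. Intervals for these elements were set as rounded distances from the gene start, from general knowledge of the loci and not from the files.

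The promoter sequences are shown because the 3 gene starts differed in the regions that cover them. Each runs from 250 bases before to 50 bases after the first annotated start, on the plus strand, from RefSeq (build GRCm38.p6, which has the coordinates of mm10). Capitals mark motif matches on either strand. The octamer of POU factors was searched for by the letters ATGCAAA and the SOX motif by the letters CATTGT. The SP1-type motif was given by the letters GGGCGG, the KLF-type motif by the letters CCACCC and the NF-Y motif by the letters CCAAT.
Pou5f1 promoter, chr17:35505782-35506081: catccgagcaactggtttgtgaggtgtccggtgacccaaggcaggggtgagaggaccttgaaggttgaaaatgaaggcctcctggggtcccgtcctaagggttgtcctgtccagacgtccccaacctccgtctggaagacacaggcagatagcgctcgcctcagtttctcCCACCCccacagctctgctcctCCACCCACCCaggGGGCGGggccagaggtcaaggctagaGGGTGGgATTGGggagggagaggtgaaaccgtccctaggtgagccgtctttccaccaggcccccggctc
Sox2 promoter, chr3:34649745-34650044: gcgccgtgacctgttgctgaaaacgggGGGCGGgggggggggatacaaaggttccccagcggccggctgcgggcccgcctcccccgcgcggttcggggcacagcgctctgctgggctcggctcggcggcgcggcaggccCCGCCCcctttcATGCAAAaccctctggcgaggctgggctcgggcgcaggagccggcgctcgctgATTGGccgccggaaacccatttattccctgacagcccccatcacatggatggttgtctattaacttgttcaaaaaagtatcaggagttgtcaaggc
Nanog promoter, chr6:122707239-122707538: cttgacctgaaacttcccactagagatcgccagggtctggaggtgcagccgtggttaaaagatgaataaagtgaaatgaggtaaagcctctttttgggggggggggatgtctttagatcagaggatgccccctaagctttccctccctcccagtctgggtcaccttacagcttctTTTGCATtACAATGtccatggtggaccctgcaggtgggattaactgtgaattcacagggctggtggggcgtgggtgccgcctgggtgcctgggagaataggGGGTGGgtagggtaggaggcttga

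Pou5f1, the OCT4 gene, was the only one of the 3 whose start base lay in regions of both sets. All 300 bases of its promoter were inside an H3.3 region and inside an H3K27ac region. All 300 bases of the Nanog promoter were inside an H3K27ac region and none were in an H3.3 region. None of the 300 bases of the Sox2 promoter were in a region of either set. The start base was thus in an H3.3 region at 1 of the 3 genes, against 7.14% of the 17492 protein-coding genes with an annotated start. It was in an H3K27ac region at 2 of the 3, against 17.7%. The second annotated starts of Nanog, 76 bp downstream, and of Pou5f1, 2775 bp downstream, differed from each other. That of Nanog lay in the same H3K27ac region as the first, and that of Pou5f1 lay between H3K27ac regions, 119 bp after one and 328 bp before the next.

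The promoters also differed in sequence. The Nanog promoter had an octamer-type motif from 75 to 69 bases upstream of its start and a SOX motif from 67 to 62 bases upstream. They were on the same strand with 1 base between them. Octamer-type motifs occurred in 4.63% and SOX motifs in 12.6% of the 32851 promoters of the RefSeq table. Pairs with this order, strand and spacing, searched for after the pair was seen here, occurred in 2 of the 32851. Both are overlapping promoters of Nanog that hold the same site, so the pair was found at 1 gene. The Sox2 promoter had an octamer-type motif from 99 to 93 bases upstream, 2 SP1-type motifs and 1 NF-Y motif, and no match to the SOX motif. In both promoters the base after the ATGCAAA match was A, so neither match is the full octamer. The Pou5f1 promoter had 4 KLF-type motifs (2 of which overlap), 1 SP1-type motif and 1 NF-Y motif, and no match to the octamer-type or the SOX motif. The Nanog promoter also had 1 KLF-type motif, from 26 to 31 bases downstream. Of all promoters, 35.7% held the SP1-type motif, 31.5% the KLF-type motif and 37.4% the NF-Y motif. None of the 3 sequences shown held the NANOG-type letters TAATGG, which were in 7.73% of all promoters. The E-box letters CACGTG, in 7.15%, and the TATA-box letters TATAAA, in 13.6%, were also in none of the 3. The Sox2 promoter held 27 CG dinucleotides, the Pou5f1 promoter 11 and the Nanog promoter 4, against a median of 7 over the table.

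**Figure D1:**
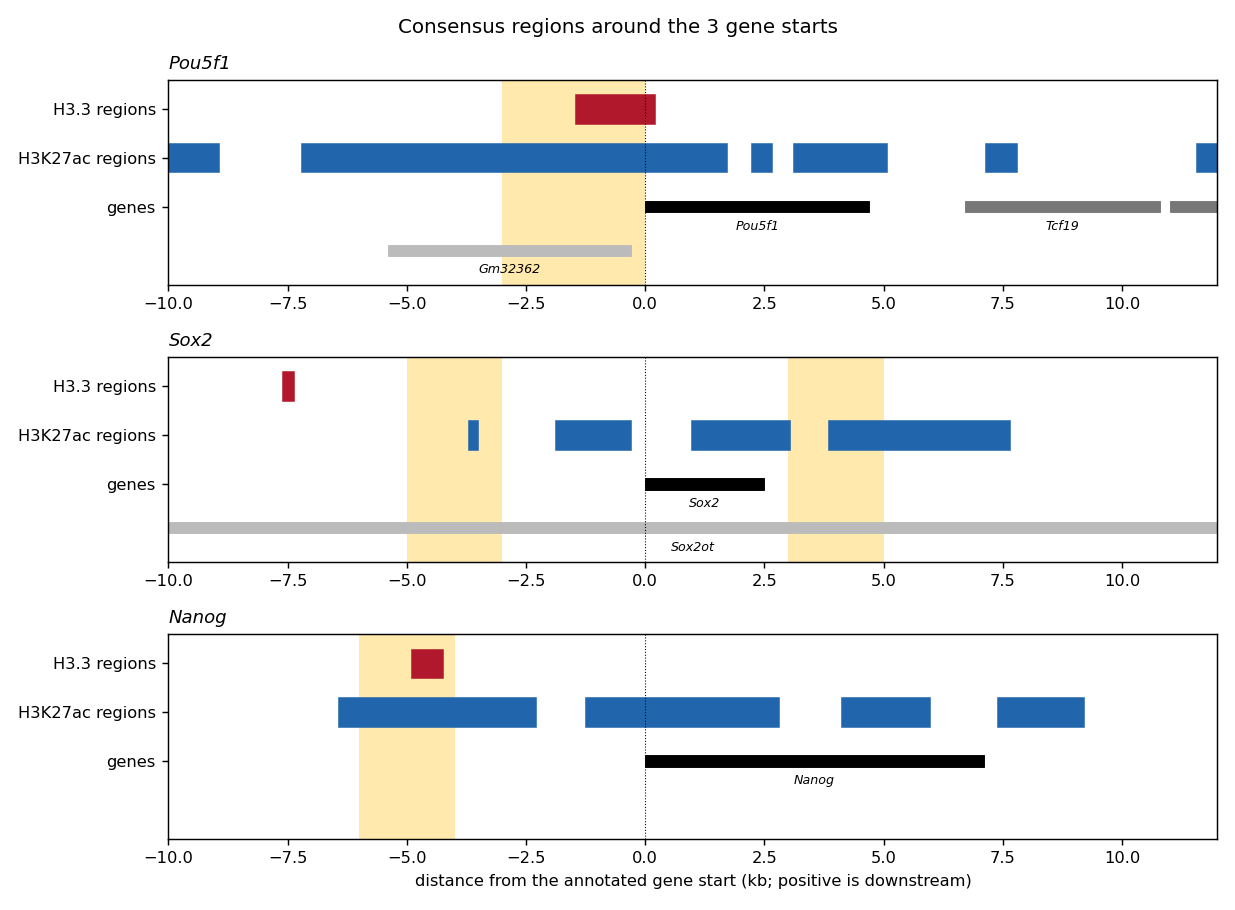
Positions of H3.3 regions (red), H3K27ac regions (blue), protein-coding genes (black for the named gene, grey for others) and long noncoding RNA genes (light grey) by distance in kb from each gene start, with intervals of known enhancers in yellow. The dotted line at the start crosses both sets at Pou5f1, H3K27ac alone at Nanog and neither at Sox2.

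At Pou5f1 (chromosome 17, 35506032 to 35510777, 4746 bp) the chromatin around the promoter was covered by one long H3K27ac region with an H3.3 region inside it. The H3.3 region measured 1684 bp (35504557 to 35506240) and ran from 1475 bp upstream of the start to 208 bp into the gene. It was wider than 92.0% of H3.3 regions. The H3K27ac region measured 8921 bp (35498817 to 35507737), from 7215 bp upstream to 1705 bp inside the gene, and was wider than 99.1% of its set. A further H3K27ac region of 448 bp lay in the gene body and one of 1959 bp ran from the body past the gene end, and the body was 80.0% covered in all. The interval of the proximal and distal enhancers, 0 to 3 kb upstream, was 100% covered by H3K27ac regions and 49.2% covered by the H3.3 region. That H3.3 cover lay wholly within 1475 bp of the start, and the part of the interval further upstream had no H3.3 region. The interval also takes in the promoter and was not divided between the enhancers, so the H3.3 cover is not assigned to either of them. A region lay in the same interval, promoter included, at 12.6% of genes for H3.3 and at 29.1% for H3K27ac. Gm32362, a long noncoding RNA gene from 5.4 to 0.3 kb upstream of the Pou5f1 start, lay wholly inside the same H3K27ac region.

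The acetylation of the Pou5f1 window lay mostly between 21.1 kb upstream and 38.6 kb downstream of the start. H3K27ac regions continued upstream to 21.1 kb, with widths of 1717, 4089 and 1582 bp outward from the gene, and then none was listed for the 128.9 kb up to the window edge. That stretch holds the class I histocompatibility genes H2-Q4, H2-Q6, H2-Q7 and H2-Q10, and none of these 4 had a region of either set in its body or within 1 kb. These genes are near copies of each other, how reads that match several copies were treated is not given in the sources used here, and its part in the missing regions was not tested. Downstream, regions of 218 to 1840 bp were listed at or beside Tcf19, a cell-cycle-linked gene, Cchcr1, Psors1c2 and Cdsn, out to 38.6 kb. A separate group of 4 regions lay 84.1 to 89.9 kb downstream, at and just past the long noncoding RNA gene Gm41577. The only other H3.3 region of the window, of 216 bp at 88.1 kb downstream (35594134 to 35594349), lay inside a region of that group. In all, the window had 21 H3K27ac regions covering 29.55 kb (9.70%) and 2 H3.3 regions covering 1.90 kb (0.623%).

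At Sox2 (chromosome 3, 34649995 to 34652461, 2467 bp) acetylation flanked the start and was widest far downstream. The start base lay between H3K27ac regions, of which the upstream one ended 299 bp before it and the downstream one began 950 bp after it. The flanking regions measured 1586 bp upstream and 2081 bp over the rest of the gene, which was 61.5% covered, and a region of 3834 bp followed from 3823 bp to 7656 bp downstream of the start. The nearest H3.3 regions were 7358 bp upstream and 14334 bp downstream. Sox2 is a gene without introns that lies inside the long noncoding RNA gene Sox2ot. Upstream, only a region of 221 bp was listed beyond the promoter, 3723 to 3503 bp before the start, and none in the remaining 146.3 kb of the window. Of the 34.14 kb covered by H3K27ac regions, 90.3% lay downstream of the gene and 5.29% upstream.

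The acetylated stretch of the Sox2 control region was the largest of the Sox2 window. Its interval, 100 to 120 kb downstream, was touched by 6 H3K27ac regions and was 63.9% covered. The widest of them measured 8429 bp (34754854 to 34763282), from 104.9 to 113.3 kb downstream, and was wider than 99.0% of its set. An H3.3 region of 851 bp (34760322 to 34761172) lay entirely inside it, from 110.3 to 111.2 kb downstream. In the same interval 8.09% of genes had an H3.3 region and 37.2% an H3K27ac region. The widths of H3K27ac regions nearer to the gene, between 76.9 and 97.3 kb, were 256 to 2670 bp, and none of them touched an H3.3 region. The window held no protein-coding gene other than Sox2.

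The rounded intervals of the nearby enhancers of Sox2 held H3K27ac regions and no H3.3 region. The interval of SRR1, 3 to 5 kb upstream, held the region of 221 bp alone. The interval of SRR2, 3 to 5 kb downstream, was 60.4% covered by 2 regions. Of these, the region over the gene ended 3030 bp downstream, just inside the interval. H3.3 regions occurred in these intervals at 1.53% and 1.55% of genes, and H3K27ac regions at 12.6% and 18.1%. The other 3 H3.3 regions of the window were short, at 262, 239 and 230 bp, lay within Sox2ot and touched no H3K27ac region. That of 230 bp ended 14 bp before one and that of 239 bp ended 837 bp before one, and that of 262 bp was 3634 bp from the nearest. The window had 24 H3K27ac regions, and 4 H3.3 regions covering 1.58 kb (0.523%).

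At Nanog (chromosome 6, 122707489 to 122714633, 7145 bp) H3K27ac regions covered the most of the 3 windows and lay on both sides of the gene. Of this cover, 30875 bp lay inside the neighbour Slc2a3. Within 5 kb of the start Pou5f1 was covered more, at 90.5% against 76.6% at Nanog. The window had 32 H3K27ac regions covering 68.24 kb (22.2%) and 5 H3.3 regions covering 2.76 kb (0.898%). The promoter lay in an H3K27ac region of 4062 bp (122706234 to 122710295), and regions of 1870 bp in the gene and 1826 bp just past its end followed. The interval of the proximal enhancer, 4 to 6 kb upstream, was 100% covered by an H3K27ac region of 4146 bp (122701051 to 122705196). An H3.3 region of 665 bp (122702573 to 122703237) lay inside that region, from 4916 to 4252 bp upstream. An H3.3 region lay in this interval at 1.34% of genes, and an H3K27ac region at 12.9%. No H3.3 region touched the body of Nanog.

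The widest acetylated region of the Nanog window lay over the downstream element. Here 13389 bp were covered in one region (122759881 to 122773269), from 52.4 to 65.8 kb downstream, wider than 99.7% of H3K27ac regions. It filled the interval of the element, 55 to 65 kb downstream, and held H3.3 regions of 847 bp (122764573 to 122765419) and 276 bp (122766517 to 122766792). For this interval the shares of genes were 4.76% for H3.3 and 29.9% for H3K27ac. The region lies inside Slc2a3, which encodes the neuronal-type glucose transporter GLUT3 and was 41.4% covered by H3K27ac regions, so a position alone does not assign it to Nanog. The upstream element, 40 to 50 kb upstream, was 55.3% covered by H3K27ac regions of 3928 and 2390 bp and had no H3.3 region, against 29.1% of genes with H3K27ac and 4.69% with H3.3.

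Of the 8 protein-coding genes in the Nanog window, Nanog included, 5 had an H3K27ac region in the gene or within 1 kb, against 50.8% of all protein-coding genes. Gdf3, a TGF-beta family ligand gene, was 100% covered by an H3K27ac region of 6522 bp. Dppa3, the Stella gene of the early embryo and germline, had 1 region of 837 bp in its body, and Apobec1, the gene of an RNA-editing enzyme, had 1 of 977 bp that reached into it. An H3.3 region of 229 bp lay 1642 bp from Dppa3 and overlapped an H3K27ac region by 111 bp, 48.5% of its width. The fifth H3.3 region, of 742 bp, lay 103.3 to 104.0 kb downstream inside an H3K27ac region of 3719 bp, between Slc2a3 and Foxj2. Foxj2 and C3ar1 had no region of either set in the gene or within 1 kb.

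**Figure D2:**
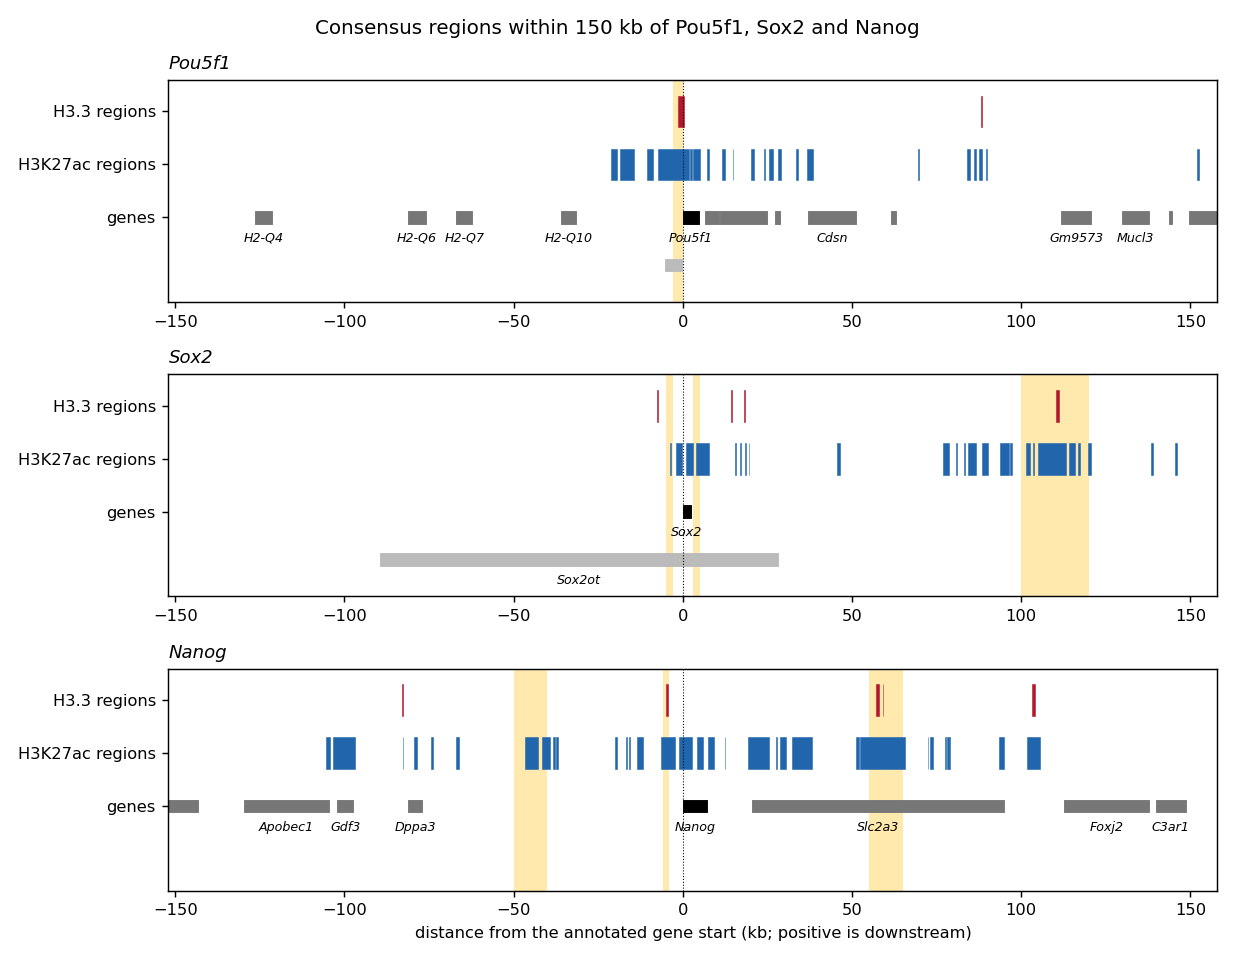
Positions of H3.3 regions (red) and H3K27ac regions (blue) across the 3 windows by distance in kb from each gene start, with protein-coding genes in black and grey, the long noncoding RNA genes Sox2ot and Gm32362 in light grey, and intervals of known enhancers in yellow. The widest H3.3 region sits inside the widest H3K27ac region of each window, upstream of and over the start of Pou5f1, about 110.3 kb downstream of Sox2 and about 57.1 kb downstream of Nanog.

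Most H3.3 regions around the 3 genes lay at H3K27ac regions, except at Sox2. Of the 11 H3.3 regions, 8 touched an H3K27ac region (72.7%), against 47.5% of all H3.3 regions. By gene, 2 of 2 did so at Pou5f1, 1 of 4 at Sox2 and 5 of 5 at Nanog. In the other direction 7 of the 77 H3K27ac regions touched an H3.3 region (9.09%), against 4.36% of all. With 11 regions, shared between 3 loci, these shares are a description.

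In each of the 3 windows the widest H3.3 region touched the widest H3K27ac region. This pattern was looked for after the positions had been seen. It was found at 11.8% of the 12589 protein-coding genes with a region of each set in the window. Wide H3K27ac regions touched H3.3 more often in general. Of those at least as wide as the 8429 bp region of the Sox2 control region, 26.5% touched an H3.3 region, against 4.36% of all. H3.3 regions took up 18.9% of the H3K27ac region at Pou5f1, 10.1% at the Sox2 control region and 8.39% at the downstream element of Nanog, where there were 2 of them. The widths of the 11 H3.3 regions ran from 216 to 1684 bp, with a median of 276 bp, against 451.5 bp over the whole set.

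Joining H3K27ac regions less than 10 kb apart showed how the acetylation was grouped. At Pou5f1 1 domain of 15 regions spanned 59.7 kb around the gene and held 26.36 kb of H3K27ac regions, rank 598 of 17481 domains by that length. Sox2 had 2 main domains. That at the gene held 8.95 kb in 8 regions (rank 2076). The other ran from 76.9 to 120.6 kb downstream and held 23.09 kb in 13 regions (rank 721). It takes in the control region interval of 100 to 120 kb and regions nearer to the gene. At Nanog the domain over the gene and part of Slc2a3 held 29.16 kb in 13 regions (rank 513). The domain that takes in the downstream element, from 51.3 to 79.0 kb downstream, held 16.47 kb (rank 1113). The domain at the upstream element, from 46.7 to 36.9 kb upstream, held 7.30 kb (rank 2503). The grouping at Nanog depends on the joining distance. Below 5 kb its gene domain held 12.11 kb and no longer reached Slc2a3.

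Close to the start the 3 genes stood high among all genes for H3K27ac. Within 5 kb on either side of the start, H3K27ac regions covered 90.5% of the sequence at Pou5f1, 50.6% at Sox2 and 76.6% at Nanog, against a mean of 9.57% over genes. The values exceeded those of 99.8%, 95.8% and 99.2% of genes, in the same gene order. For H3.3 the same 10 kb were covered to 16.8% at Pou5f1, 0% at Sox2 and 6.65% at Nanog, against a mean of 1.47%. Over the whole windows the ranks by H3K27ac were lower, but over all 21887 protein-coding genes instead of the 17492 with a known start. No H3K27ac cover was listed at 57.3% of genes within 5 kb of the start and at 15.1% in the window. By H3K27ac-covered length Pou5f1 exceeded 70.5%, Sox2 74.8% and Nanog 94.0% of protein-coding genes, whose median was 13041 bp. By H3.3-covered length in the windows they exceeded 80.5%, 77.2% and 87.2%. The median over genes was 315 bp, and 41.1% of genes had no H3.3 region in the window. Within 5 kb of the start the H3.3 values exceeded those of 98.4% of genes at Pou5f1, 0% at Sox2 and 93.3% at Nanog. The 0% at Sox2 is a tie with the 81.8% of genes that had no H3.3 cover there, so it is not a lowest rank.

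**Figure D3:**
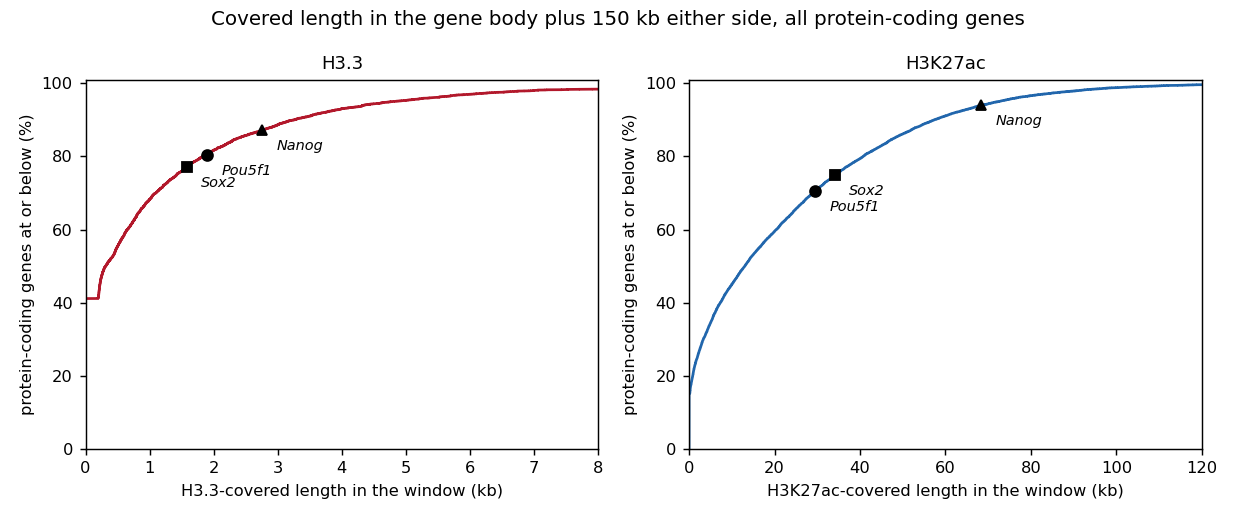
Cumulative share of protein-coding genes, in percent, by the length in kb that H3.3 regions (left) and H3K27ac regions (right) cover in the gene body plus 150 kb on either side, with Pou5f1, Sox2 and Nanog marked. Nanog lies highest of the 3 in both panels, at 2.76 kb for H3.3 and 68.24 kb for H3K27ac, and the axes end before the highest genes.

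Within the gene body and 1 kb around it, all 3 genes had H3K27ac and Pou5f1 alone had H3.3 as well. Over protein-coding genes, 19.6% had H3.3 there, 50.8% had H3K27ac and 15.0% had both. The naive factors Esrrb, Tfcp2l1, Nr5a2 and Tbx3, which help to hold the ground state, had both sets in 4 of 4 genes. Their windows held 53.11 to 57.06 kb of H3K27ac regions at Esrrb, Tfcp2l1 and Nr5a2, and 14.53 kb at Tbx3. Tbx3 had the most H3.3 of the 4, with 5.19 kb in its window. Nanog thus had more H3K27ac in its window than any of the 4, with 30875 bp of it inside the neighbour Slc2a3. Pou5f1 and Sox2 had less in their windows than Esrrb, Tfcp2l1 and Nr5a2 and more than Tbx3. At the gene and 1 kb around it the order differed. There H3K27ac covered 52926 bp at Esrrb, 43749 bp at Tfcp2l1, 31894 bp at Nr5a2 and 4542 bp at Tbx3. The values were 5113 bp at Pou5f1, 2783 bp at Sox2 and 6444 bp at Nanog, without regard to gene length. Of 32 other genes of the network, 28 had H3K27ac, 15 had H3.3 and 13 had both. Among these the widest H3.3 regions were at Otx2, an epiblast and forebrain factor (5078 bp), the Nodal co-receptor gene Tdgf1 (1513 bp), the RNA-binding protein gene Lin28a (1395 bp) and Fbxo15 (1266 bp). The 4 without H3K27ac were Foxd3, Nr0b1, Otx2 and Prdm14.

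In the POU and SOX families, 3 of the 14 other POU genes and 6 of the 18 other SOX genes had H3K27ac at the gene. The share over all protein-coding genes was 50.8%. H3.3 was at 6 of these POU genes and 12 of these SOX genes, against 19.6%, and 15.0% of protein-coding genes had both. Pou5f1 was the only one of 15 POU genes with both sets at the gene. Of the other 14, 6 had H3.3 without H3K27ac, 3 had H3K27ac without H3.3 and 5 had neither. Widest among the 6 was Pou3f2, a brain factor, with an H3.3 region of 5018 bp, and Pou3f3, of the kidney and brain, had 2809 bp. H3K27ac regions covered 5113 bp at Pou5f1. The 3 others with H3K27ac were Pou2f1, Pou2f2 and Pou2f3, which encode OCT1, OCT2 and OCT11, with 30834, 978 and 741 bp covered. Sox2 was 1 of 7 SOX genes with H3K27ac among 19, and 1 of 3 with H3K27ac and no H3.3, with Sox5 and Sox15. Of the other 18, 12 had H3.3, 8 of these without H3K27ac. Sox14 (4670 bp), Sox6 (2524 bp), the endoderm factor Sox17 (2186 bp) and Sox9, of cartilage and testis (1710 bp), had the widest H3.3 regions. Sox1 and Sox3, the closest relatives of Sox2, had H3.3 regions of up to 1589 and 631 bp and no H3K27ac at the gene. Sox1, Sox3 and the genes with H3K27ac were named after their values were seen.

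**Figure D4:**
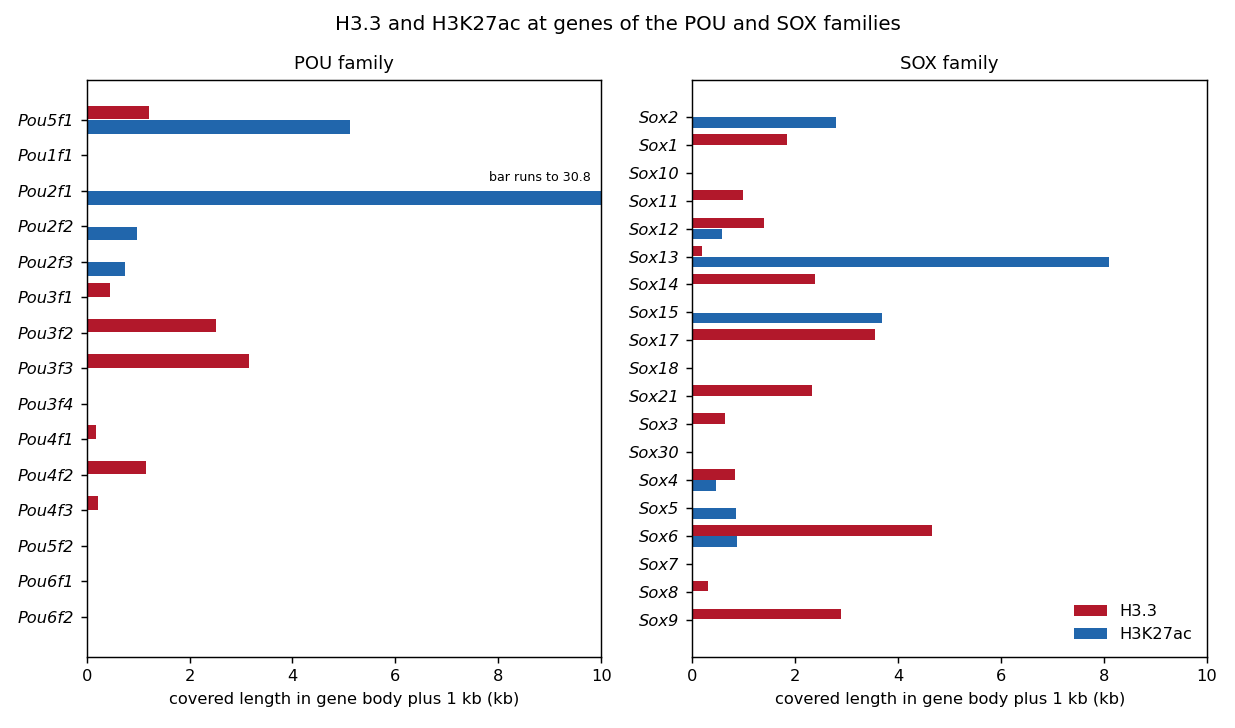
Length in kb that H3.3 regions (red) and H3K27ac regions (blue) cover in the gene body plus 1 kb on either side, for each gene of the POU family (left) and the SOX family (right), with Pou5f1 and Sox2 at the top. Pou5f1 carries both, Sox2 carries H3K27ac alone at 2.78 kb, and the bar of Pou2f1 runs past the axis, to 30834 bp.

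The genes most like each of the 3 were found by the distance over 4 percentile ranks, for H3K27ac-covered and H3.3-covered length in the window and in the gene plus 1 kb. For Pou5f1 they were Arhgap12, a GTPase-activating protein gene (distance 1.96 percentile points), Stmn1, the stathmin gene (3.87), and Esrp1, an epithelial splicing factor gene (4.74). For Sox2 they were Gm29797 (1.55), Igflr1 (2.57) and Fam160b2 (2.6). For Nanog they were Smc5, of the SMC5/6 complex (1.87), Kri1 (2.31) and Lamtor1, a Ragulator subunit gene (2.56). Pou5f1 had 29.55 kb of H3K27ac and 1.90 kb of H3.3 in its window, and Arhgap12 had 28.15 and 1.85 kb. Nanog had 68.24 kb of H3K27ac and 2.76 kb of H3.3, and Smc5 had 71.46 and 3.02 kb. These genes were chosen by the same lengths, so their likeness follows from the choice. Genes within 1 Mb of a member, such as the listed network gene Dppa3, could not be chosen. None of the genes chosen is in the lists of network genes. These lists hold only 4 and 32 of the 21887 protein-coding genes, so most genes are in neither.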

How the data were processed

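Each CUT&RUN library took its target and genotype group from its title. The deposited files hold the chromosome, start and end of consensus regions, 1 list for H3.3 and 1 for H3K27ac. Bowtie2, SAMtools, deepTools and MACS2 and the build mm10 are named, without versions or roles, per the submitters' processing notes. The sources used here give neither how libraries were combined nor a threshold. Per the labels' protocols, H3.3 and H3K27ac libraries differed in nuclease fusion and in the salt used to stop digestion, so the amounts of the 2 sets are not compared with each other.

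Starts were raised by 1 bp to give 1-based positions, as for BED files, although the files do not say how they count, so a start may be off by 1 bp. Regions off the 21 assembled chromosomes (16 for H3.3, 13 for H3K27ac) were left out, and columns of other samples numbered 0. Genes and promoters came from RefSeq tables of GRCm38.p6. The gene table has no exons, so regions were not placed in exons or UTRs. A first start and strand were known for 17492 of 21887 protein-coding genes. Touching means an overlap of 1 bp or more. A percentile is the share of protein-coding genes with a lower value. For distances from the start it is taken over the 17492 genes with a known start, otherwise over all 21887. The members, the lists and the rules for named genes (neighbours in a window, up to 4 list members with the widest regions, the 3 genes most alike per member) were chosen with earlier results of these data known. No test was run, since the lists hold no replicates. The counting code was checked on 2000 simulated windows against a direct count, with 0 mismatches. Alternatives covered the window, the wider 50% of each set, joining, the overlap rule and the set of genes ranked. Python 3.11.15, NumPy 2.4.6, pandas 2.3.3, SciPy 1.17.1 and Matplotlib 3.10.9 were used.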

Additional observations from a re-analysis of the deposited data

How the results depend on the processing

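No paired analysis was possible because the lists carry no value per library. Keeping the wider 50% of each set left 11, 12 and 18 H3K27ac regions and 1, 1 and 3 H3.3 regions in the windows of Pou5f1, Sox2 and Nanog, and 5 H3.3 regions that touched H3K27ac, which were 5 of 5 in the windows, against 37.5% of all 2715 wider H3.3 regions. A window of 200 kb gave 5 H3.3 regions at Pou5f1 instead of 2. The other counts stayed within 1.5 times with windows of 100 and 200 kb and with regions under 1 kb apart joined. With an overlap of 50% of the H3.3 region 7 of 11 touched H3K27ac (40.6% of all H3.3 regions), and with gaps of up to 1 kb allowed 10 of 11 did (54.4% of all). Over other windows, over genes with a region alone and, as chosen after seeing the data, by percent of the window covered, the H3K27ac percentiles were 65.2 to 79.5 for Pou5f1, 67.6 to 77.6 for Sox2 and 91.4 to 97.0 for Nanog. The H3.3 percentiles were 66.9 to 86.3, 61.3 to 79.0 and 78.2 to 91.8. Joining below 5 kb instead of 10 kb gave 20.62 kb for the gene domain of Pou5f1 and 7.72 kb for that of Sox2. Depth is unknown, so a position without a region is only one that was not listed.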

Other observations

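Noncoding genes of the Sox2 window held little of either set apart from Sox2ot. Of its 5 long noncoding RNA genes, Sox2ot had 3 H3.3 regions and 8 H3K27ac regions, the latter covering 7.61% of it. Gm42205, Gm34941, Gm3143 and Gm38509 had no region of either set in the gene or within 1 kb. The 8 H3K27ac regions are those of the joined domain at Sox2. Since Sox2 lies inside Sox2ot, position alone does not assign them to the noncoding gene. The stretch between 19.7 and 76.9 kb downstream of the Sox2 start held a single H3K27ac region of 1030 bp and no H3.3 region. It lies between the 2 main H3K27ac domains. Further H3K27ac regions were listed from 76.9 to 97.3 kb, before the control region interval.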
